A study of Bos indicus with 5 samples.

Results

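The Notch pathway was examined through 10 genes in the ampulla, the region of the oviduct where fertilization takes place, of Nelore (Bos indicus) cows. These were the receptors NOTCH1, NOTCH2, NOTCH3 and NOTCH4, the ligands JAG1, JAG2, DLL1 and DLL4, and the target genes HES1 and HEY1. Genes were picked by symbol from a table of 24616 genes, and all 10 were found once each. The rule that picked them used no measured values, though it was set with earlier results of these data known.

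The cows were multiparous and healthy, and their follicles were manipulated with hormones before ovulation. All of them carried an intravaginal progesterone device, and all received estradiol benzoate at its insertion, prostaglandin F2α analog at its removal and again later, and a GnRH agonist to induce ovulation. In the 2 LF/LCL cows, named for a large follicle and a large corpus luteum, the device came out 42 h before GnRH, and an extra prostaglandin injection was given when it was inserted. In the 3 SF/SCL cows, with a small follicle and a small corpus luteum, the device came out 30 h before GnRH. Tissue was taken on day 4 from the oviduct on the side of the corpus luteum and held the full thickness of the wall. Each library came from 1 cow, so the spread between libraries is a spread between animals. The sequenced cows were selected by the study from the opposite ends of a ranking of the animals, and 1 LF/LCL library had been discarded by the study for its quality.

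Notch receptors are single-pass proteins that are activated by ligands on a neighbouring cell. Ligand binding exposes the receptor to cleavage by an ADAM protease and then by γ-secretase, and the freed intracellular domain joins RBPJ and a Mastermind protein to switch on genes such as HES1 and HEY1. In the oviduct epithelium Notch signalling is known for its part in the choice between secretory and ciliated fate. In the wall of blood vessels NOTCH1, NOTCH4 and DLL4 are known from endothelial cells, and NOTCH3 from pericytes and smooth muscle cells.

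The libraries held between 13418278 and 19592174 reads in genes. The unit below is the normalized read, a gene's reads in a library over the size factor of that library. The fewest reads behind any value of the 10 genes were 140, for NOTCH4 in LF/LCL replicate 2, where counting alone gives a coefficient of variation of 8.45%. Because no transcript lengths were used, levels are compared between libraries for a gene. A highest mean in a list, a share of reads or a ratio of genes counts reads only. It does not rank expression between genes. OVGP1, the oviduct glycoprotein of secretory cells, ranged from 117179 to 147247 normalized reads, and FOXJ1, the regulator of motile cilia, from 8481 to 12698, so both epithelial cell types of the ampulla were represented in every library. In bulk tissue, fewer cells of a type and less RNA per cell cannot be told apart.

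Of the 10 genes, none differed between LF/LCL and SF/SCL at an adjusted p under 0.05 in the limma test on log2(value + 1), which called 0% of the 15815 genes tested. All 10 genes were among those tested. At an unadjusted p under 0.05 the test called 1 of the 10, against 11.5% of all genes. The smallest adjusted p among the 10 was 0.39, that of DLL1. DESeq2 on the recovered whole reads called none of the 10 and 2.91% of all genes. In 2 of the 10, DLL1 and DLL4, the libraries of the groups did not overlap, where 30.1% of all genes tested had groups that did not overlap. The median log2 difference of the 10, LF/LCL minus SF/SCL, was -0.08, beside 0.01 over all genes tested. With 2 against 3 libraries an exact permutation test has 10 arrangements and cannot give a two-sided p below 0.1, so the limma test carries the comparison.

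**Figure D1:**
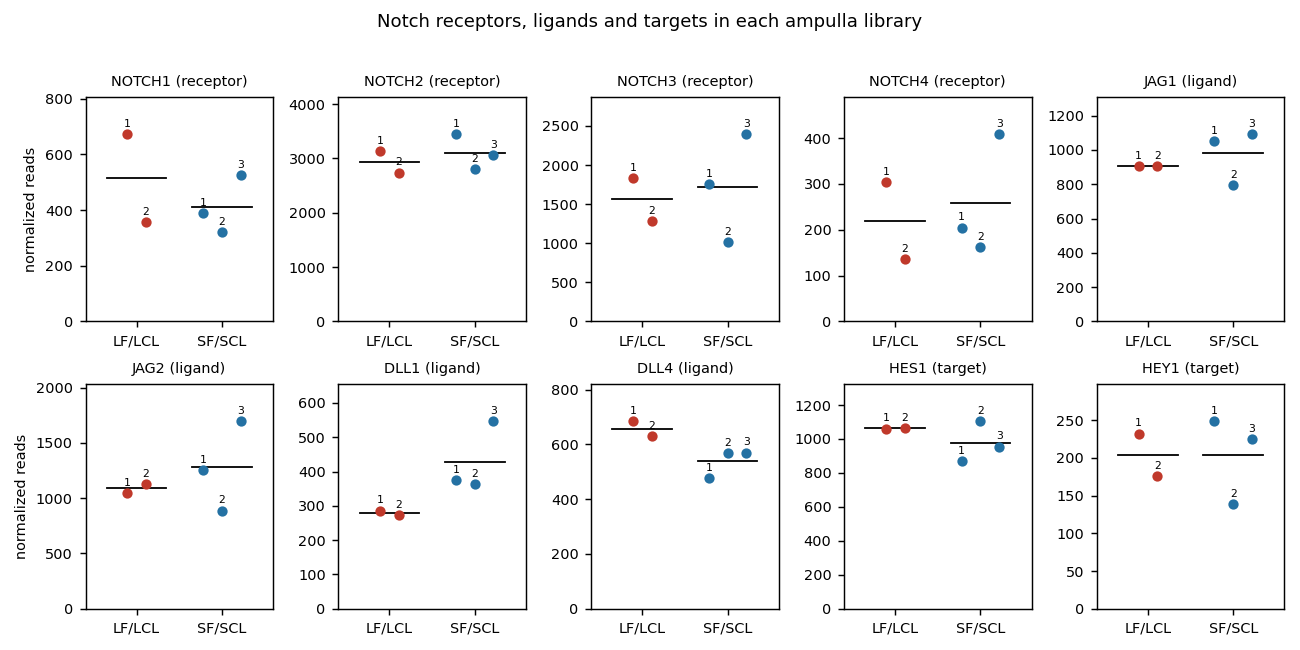
Normalized reads (y axis, from 0, with a scale of its own in each panel) of the 10 Notch genes in each library, with points for LF/LCL (red) and SF/SCL (blue) numbered by replicate and a line at the group mean. DLL1 was lower and DLL4 higher in both LF/LCL libraries than in any SF/SCL library, and the groups overlapped in the other 8 panels.

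Among the ligands, DLL1 and DLL4 stood on opposite sides. DLL1, a Delta ligand that activates Notch on adjacent cells, had 286 and 274 normalized reads in LF/LCL replicates 1 and 2. In SF/SCL replicates 1, 2 and 3 it had 374, 364 and 546. Both LF/LCL libraries lay below all 3 SF/SCL libraries, an order seen in 15.1% of all genes tested. The group means were 280.0 ± 8.65 (SD, n = 2) and 428 ± 102 (SD, n = 3). On the log2(value + 1) scale the difference was -0.59 (SE 0.21, 95% interval -1.11 to -0.07), with an unadjusted limma p of 0.0326 and an adjusted p of 0.39. Across all genes, 5.86% had an unadjusted p under 0.05 with the higher mean in SF/SCL. SF/SCL replicate 3 held the highest DLL1 value, and without it the difference was -0.40 with an unadjusted p of 0.0471. Without LF/LCL replicate 1 or 2 the unadjusted p was 0.0858 or 0.114.

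Epithelial markers were set beside these values, and their part in the DLL1 values was not tested. None of them had an adjusted limma p under 0.05. DESeq2 called 2 of the 11 ciliated markers tested and 1 of the 7 secretory markers at an adjusted p under 0.05, beside 2.91% of all genes. In the list of ciliated cell markers 10 of 11 tested genes had an unadjusted p under 0.05, all with the higher mean in SF/SCL. Over all genes 5.86% did so. The summed ciliated list was 57607 and 73066 normalized reads in LF/LCL against 85939 to 87213 in SF/SCL. FOXJ1 was 8481 and 9373 in LF/LCL against 10647 to 12698 in SF/SCL. Of 7 secretory markers, 4 had the higher mean log2 value in LF/LCL and 3, OVGP1 among them, in SF/SCL. In all, 3 had an unadjusted p under 0.05 and a higher mean in LF/LCL, where 5.64% of all genes did. One of them was PAX8, a transcription factor of secretory cells, with 1279 and 1203 in LF/LCL against 716 to 952 in SF/SCL. The summed secretory list overlapped, from 142349 to 167564 in LF/LCL and from 140407 to 170478 in SF/SCL.

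DLL4, the Delta ligand best known from arteries and sprouting vessels, had 684 and 630 normalized reads in LF/LCL. It had 476, 567 and 570 in the SF/SCL replicates. Here both LF/LCL libraries lay above all SF/SCL libraries, an order shared by 15.0% of all genes tested. The log2 difference was 0.29 (SE 0.14, 95% interval -0.04 to 0.62), with an unadjusted p of 0.0748 and an adjusted p of 0.479 in limma. The interval includes 0, and DLL4, like DLL1, was not called at an adjusted p under 0.05.

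The ratio of these ligands within each library was also taken, as a description chosen with the values in view, and without a test. DLL4 had 2.39 and 2.30 reads per DLL1 read in LF/LCL replicates 1 and 2, and 1.27, 1.56 and 1.04 in SF/SCL replicates 1, 2 and 3. As DLL1 and DLL4 each separated the groups in opposite directions, the ratio had to separate them too. The means were 2.35 ± 0.063 (SD, n = 2) and 1.29 ± 0.257 (SD, n = 3). Size factors cancel in this ratio, so it does not depend on the scaling of the libraries. DLL1 took 9.79% and 9.32% of the reads of the 4 ligands in LF/LCL and between 11.9% and 14.0% in SF/SCL. The DLL4 share overlapped, at 23.4% and 21.4% against a range of 14.6% to 21.7%.

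The Jagged ligands were close to even between the groups. JAG1, a ligand of many epithelia and vessel walls, had 907 and 905 normalized reads in LF/LCL against 1050, 796 and 1093 in SF/SCL. Its LF/LCL values lay inside the SF/SCL range, and the log2 difference was -0.10 (95% interval -0.49 to 0.29, adjusted limma p 0.865). JAG2, its closest relative, had 1047 and 1131 in LF/LCL against 1257, 888 and 1695 in SF/SCL. The LF/LCL values of JAG2 also lay inside the SF/SCL range, with a log2 difference of -0.18 (95% interval -0.84 to 0.47, adjusted p 0.843). The JAG2 value of SF/SCL replicate 3 set the sign of this difference, which was 0.04 without that library. JAG1 made up 31.0% and 30.8% of the ligand reads in LF/LCL against 28.0% to 33.3% in SF/SCL.

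**Figure D2:**
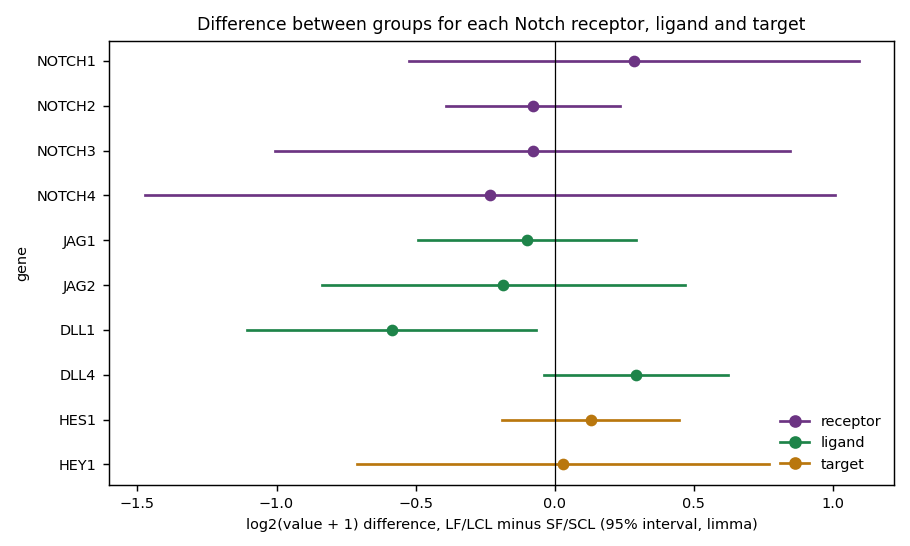
Log2(value + 1) difference between LF/LCL and SF/SCL (x axis, positive where LF/LCL was higher) for each Notch gene (y axis), with the point at the limma estimate and the line over its 95% interval, coloured by role. The DLL1 interval, from -1.11 to -0.07, is the only one of the 10 that leaves out 0, and the NOTCH4 interval is the widest.

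The receptors showed no difference between the groups past the spread of the animals. NOTCH1, the receptor shared by many epithelia and by endothelium, had 673 and 357 normalized reads in LF/LCL against 389, 320 and 525 in SF/SCL. The highest and the second lowest of these values were both LF/LCL libraries. Its log2 difference was 0.28 (SE 0.33, 95% interval -0.53 to 1.09, adjusted limma p 0.799), and it turned to -0.17 without LF/LCL replicate 1. NOTCH2, widely expressed in epithelium, had 3135 and 2740 in LF/LCL against 3448, 2806 and 3055 in SF/SCL. This receptor was the most even of the 4, with the highest library 1.26 times the lowest. The NOTCH2 difference was -0.08 (SE 0.13, 95% interval -0.39 to 0.24, adjusted p 0.869).

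NOTCH3 and NOTCH4 varied more between animals than between groups. NOTCH3, the receptor of mural cells, had 1835 and 1287 normalized reads in LF/LCL. In the SF/SCL replicates it had 1756, 1019 and 2395. SF/SCL replicates 2 and 3 held the lowest and the highest value, so the range of 1 group enclosed the other. The log2 difference was -0.08 (SE 0.37, 95% interval -1.0 to 0.84, adjusted limma p 0.96), and it was 0.18 without LF/LCL replicate 2 and 0.20 without SF/SCL replicate 3. NOTCH4, an endothelial receptor, had 304 and 136 in LF/LCL against 205, 162 and 409 in SF/SCL. Its lowest library was LF/LCL replicate 2 and its highest SF/SCL replicate 3, which was 3.02 times the lowest. The difference was -0.23 (SE 0.50, 95% interval -1.47 to 1.01, adjusted p 0.904), turning to 0.35 without LF/LCL replicate 2 and to 0.15 without SF/SCL replicate 3. An interval of this width leaves room for a NOTCH4 difference of more than 1 log2 unit in either direction.

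The targets did not separate the groups either. HES1, a transcriptional repressor and the classical Notch target, had 1061 and 1064 normalized reads in LF/LCL against 871, 1104 and 955 in SF/SCL. Its LF/LCL libraries were nearly equal and were passed by SF/SCL replicate 2. The log2 difference was 0.13 (SE 0.13, 95% interval -0.19 to 0.45, adjusted limma p 0.761). HEY1, a related repressor known from vessels and smooth muscle, had 232 and 176 in LF/LCL against 248, 139 and 225 in SF/SCL. The HEY1 group means were 204.2 ± 39.6 (SD, n = 2) and 204.3 ± 57.6 (SD, n = 3). The HEY1 difference of 0.03 (SE 0.30, 95% interval -0.71 to 0.77, adjusted p 0.983) changed sign with library size scaling, where it was -0.01.

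The 10 genes covered a wide range of spread within the groups. The residual SD of NOTCH4 was 0.736 on the log2 scale, above that of 87.5% of all genes tested. NOTCH3 followed at 0.55, NOTCH1 at 0.474, HEY1 at 0.398 and JAG2 at 0.383, all above the median of 0.226 over all genes. DLL1 lay at 0.267. JAG1, at 0.203, was below that median but above the 0.175 of genes with a mean value of at least 100. The steadiest were NOTCH2 at 0.145, HES1 at 0.14 and DLL4 at 0.13, and the DLL4 spread exceeded that of only 25.7% of all genes.

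Vessel and wall markers also varied between the animals, and the part of those cells in the receptor values was not tested. The sum of 8 endothelial markers was 7938 and 5000 normalized reads in LF/LCL against 6491, 5955 and 8654 in SF/SCL. NOTCH4 ranked the 5 libraries in the same order as that sum, from SF/SCL replicate 3 at the top to LF/LCL replicate 2 at the bottom. NOTCH1 did not follow it, and had the order of the stromal fibroblast marker sum, with LF/LCL replicate 1 highest and SF/SCL replicate 2 lowest. These matching orders were picked from many pairs of a gene and a marker sum. With 5 libraries they were not tested. PECAM1 was not analysed here. Among the endothelial markers 1 of 8 had an unadjusted p under 0.05, or 12.5% against 11.5% of all genes. This was KDR, named after its values were seen, with 2080 and 1797 in LF/LCL against 2699 to 3560 in SF/SCL. DESeq2 called only KDR of the 8, at an adjusted p of 0.00671, beside 2.91% of all genes. KDR had the highest mean of the list, and the sum was not taken without it. Of the 8 endothelial markers 5 had the higher mean log2 value in LF/LCL, and the median difference of the list was 0.19.

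The sum of 6 mural cell markers was 5715 and 2667 normalized reads in LF/LCL against 2642, 1798 and 3032 in SF/SCL. PDGFRB, which marks pericytes, was 1561 and 523 in LF/LCL against 812, 397 and 1109 in SF/SCL. NOTCH3 did not rank the libraries in the order of that sum. NOTCH3, HEY1 and PDGFRB were all lowest in SF/SCL replicate 2, while HEY1 was highest in SF/SCL replicate 1. The smooth muscle list separated the groups. An unadjusted p under 0.05 with a higher mean in LF/LCL was found in 8 of 8 genes, against 5.64% of all genes. DESeq2 called 4 of the 8 at an adjusted p under 0.05, beside 2.91% of all genes. The smooth muscle sum was 118778 and 61204 in LF/LCL against 14950 to 40772 in SF/SCL. ACTA2, smooth muscle actin, was 28142 and 15733 against 2952 to 10150. NOTCH3 and HEY1 overlapped between the groups in these same libraries. NOTCH3 and NOTCH4 were highest in SF/SCL replicate 3, where the smooth muscle sum was lowest and the endothelial sum highest. The part of smooth muscle or mural cells in the NOTCH3 and HEY1 values was not tested.

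**Figure D3:**
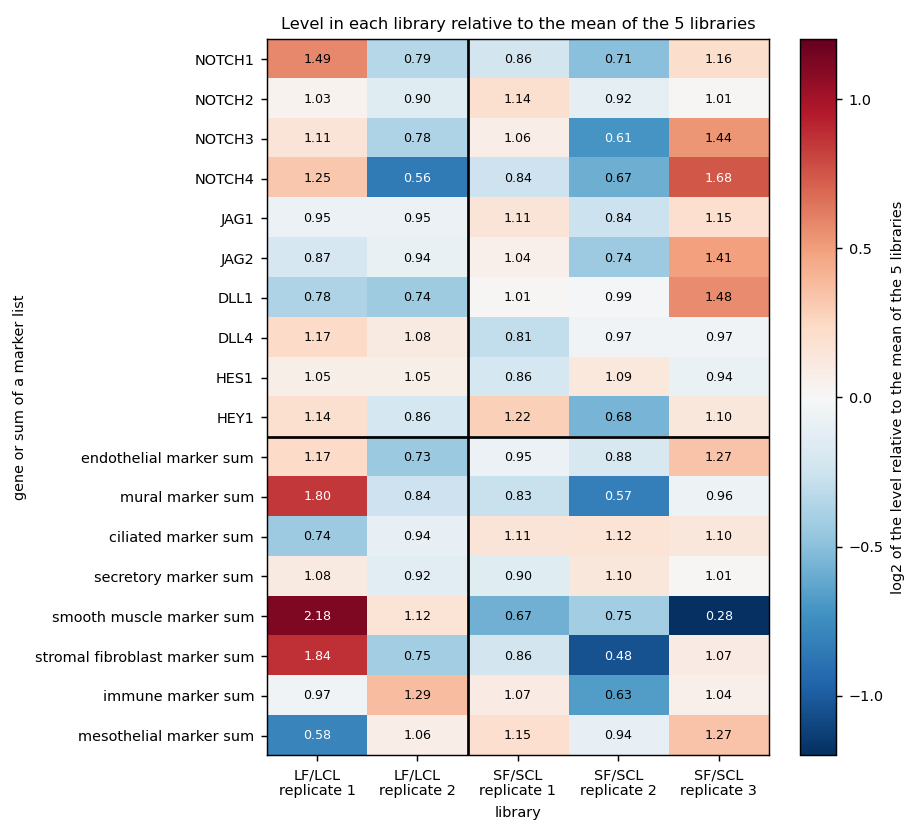
Level of each Notch gene and each summed marker list (rows) in the 5 libraries (columns), as a multiple of the mean of the 5 libraries, with colour for its log2. NOTCH4 runs from 0.56 in LF/LCL replicate 2 to 1.68 in SF/SCL replicate 3, where the endothelial marker sum is also lowest and highest, and the smooth muscle sum runs from 0.28 to 2.18.

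Around these 10 genes, 76 further pathway genes were listed by role. Of these, 75 were in the table and 71 passed the filter on low values, while DLK1 was not analysed here. DLK2, DNER, HES5 and HES7, named after their values were seen, did not pass. Of the 71 none had an adjusted limma p under 0.05. At an unadjusted p under 0.05, 6 had the higher mean in LF/LCL against 7 in SF/SCL, together 18.3% against 11.5% of all genes, where the directional shares over all genes were 5.64% for LF/LCL and 5.86% for SF/SCL. No overlap between the groups was seen in 22 of the 71, or 31.0%, close to the 30.1% of all genes. DESeq2 called 2 of the 71, LFNG and APH1B, a share of 2.82% beside 2.91% of all genes. Leaving out each library in turn kept an unadjusted limma p under 0.05 in 5 of 5 fits for those 2 genes, in 4 for DTX2 and FBXW7, in 3 for FURIN and NCSTN, in 2 for AES and HEY2, in 1 for MAML2, CDK8 and HES2, and in 0 for CTBP2.

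**Figure D4:**
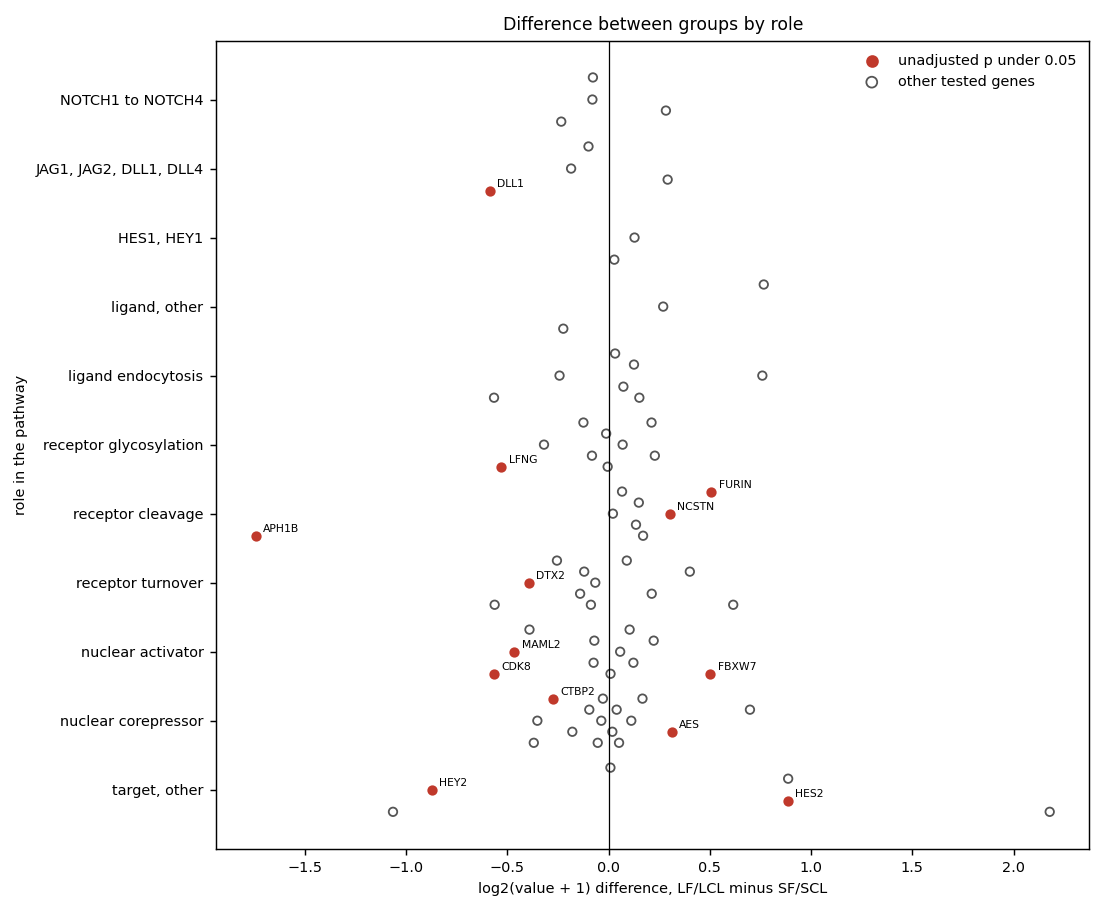
Log2(value + 1) difference between LF/LCL and SF/SCL (x axis, positive where LF/LCL was higher) for the tested genes of the pathway except 1 that is not shown, in rows by role (the height of a point within its row carries no value), with filled points where the unadjusted limma p was under 0.05. Filled points lie on both sides of 0, with FURIN and NCSTN to the right and APH1B at -1.74.

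Receptor glycosylation held LFNG, the Fringe enzyme that extends O-fucose on Notch receptors and shifts their response between Delta and Jagged ligands. LFNG had 1166 and 1126 normalized reads in LF/LCL against 1525, 1608 and 1843 in SF/SCL. All SF/SCL libraries were above both LF/LCL libraries. The log2 difference was -0.53 (SE 0.12, 95% interval -0.81 to -0.24), with an unadjusted limma p of 0.00379 and an adjusted p of 0.248, while DESeq2 gave an adjusted p of 0.0228 and the edgeR exact test 0.0941. With each library left out in turn the difference ranged from -0.59 to -0.45. LFNG was the only 1 of the 9 glycosylation genes at an unadjusted p under 0.05, or 11.1% against 11.5% of all genes. It was higher in the same group as DLL1.

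Of the 9 receptor cleavage genes, 4 had an unadjusted p under 0.05, or 44.4% against 11.5% of all genes, and no test compared the roles. FURIN, the convertase that matures the receptor on its way to the surface, had 2115 and 1496 normalized reads in LF/LCL against 1285, 1334 and 1142 in SF/SCL, a log2 difference of 0.51 (95% interval 0.10 to 0.92, adjusted limma p 0.362). The FURIN difference was 0.26 without LF/LCL replicate 1 and 0.76 without LF/LCL replicate 2, with an unadjusted p of 0.151 and 0.00388. NCSTN, the substrate receptor of γ-secretase, was also higher in both LF/LCL libraries than in any SF/SCL library. It had 1590 and 1711 in LF/LCL against at most 1354 in SF/SCL, a difference of 0.30 (adjusted p 0.347). Neither FURIN nor NCSTN passed the adjusted threshold in DESeq2.

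APH1B, which encodes an alternative form of the APH1 scaffold subunit of γ-secretase, went the other way. It had 16.4 and 16.5 normalized reads in LF/LCL against 56.1, 45.9 and 73.0 in SF/SCL, from 14 and 17 reads against 54, 59 and 68. The log2 difference was -1.74 (SE 0.39, 95% interval -2.68 to -0.80), with an unadjusted limma p of 0.0038 and an adjusted p of 0.248. DESeq2 gave an adjusted p of 0.0175 and the edgeR exact test 0.0375. APH1A, the paralog, overlapped between the groups at 2052 and 2120 against 1973 to 2164, and its log2 difference of 0.02 was -0.01 with library size scaling. Only uniquely mapped reads were counted, so reads that matched both paralogs would be lost to both. The levels of APH1A and APH1B are uncertain to that extent.

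**Figure D5:**
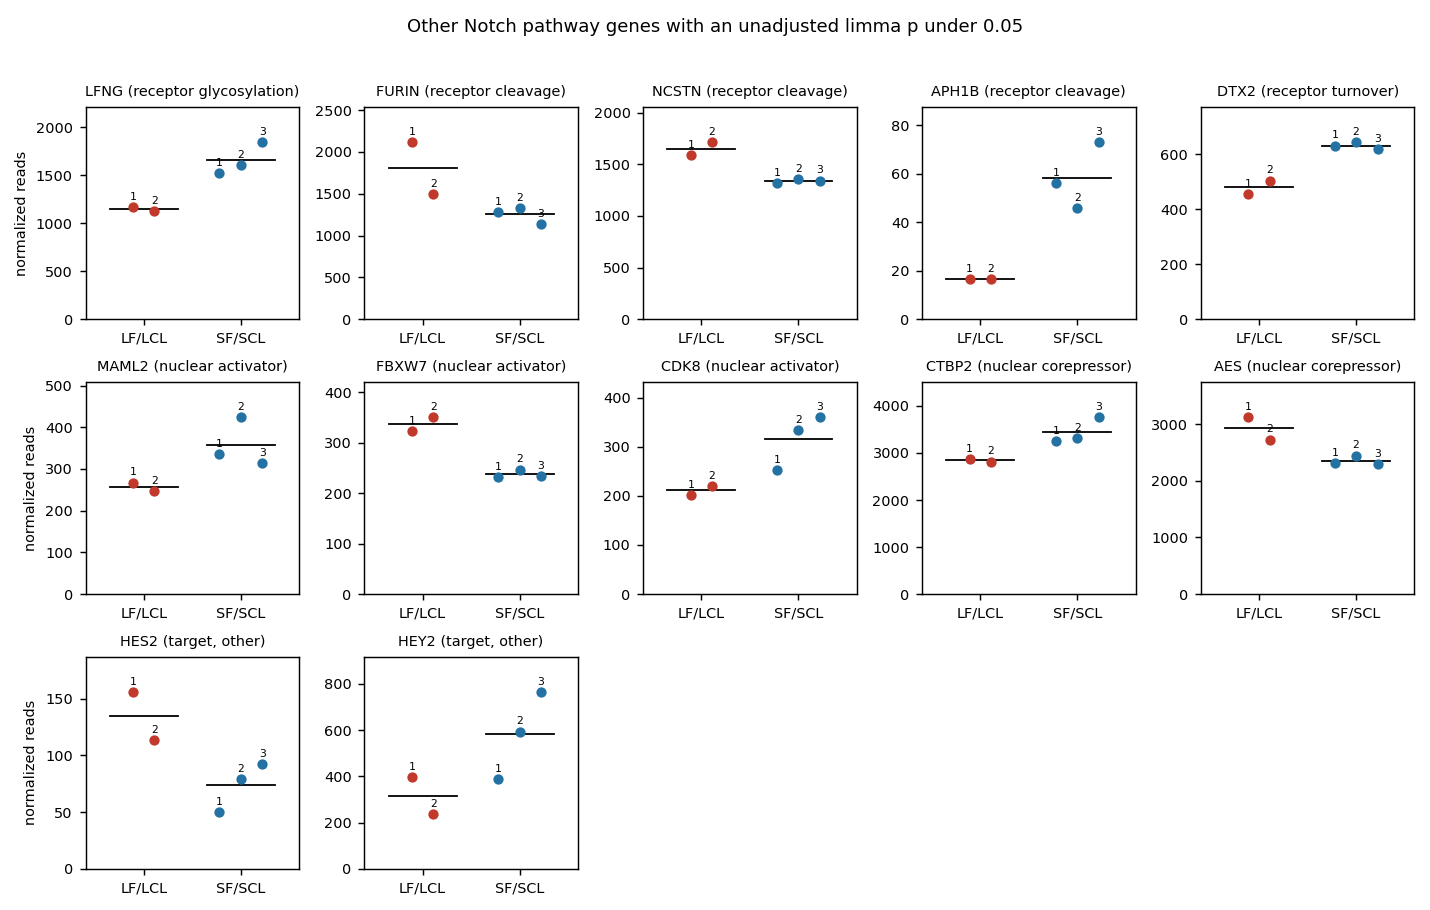
Normalized reads (y axis, from 0, scaled per panel) of 12 of the 13 other Notch pathway genes with an unadjusted limma p under 0.05, with numbered points for LF/LCL (red) and SF/SCL (blue) libraries and a line at the group mean. The groups overlap in HEY2 and are apart in the other panels, and the largest gap relative to the mean is that of APH1B, at 16.4 and 16.5 against 45.9 to 73.0. Choosing panels by that p favours groups that are apart, which were seen in 30.1% of all genes tested.

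In the nuclear machinery 3 of 11 activator genes had an unadjusted p under 0.05, or 27.3% against 11.5% of all genes, in both directions. MAML2, a Mastermind coactivator, was lower in LF/LCL, at 267 and 247 normalized reads against 313 to 424, a log2 difference of -0.46 (adjusted limma p 0.42). CDK8, a kinase that marks the intracellular domain for destruction, was also lower there, at 202 and 221 against 253 to 361, a difference of -0.56 (adjusted p 0.39). FBXW7, the ubiquitin ligase subunit that then removes that domain, was higher in LF/LCL, at 323 and 350 against 232 to 246, a difference of 0.50 (adjusted p 0.329). CDK8 and FBXW7 were listed with the activators although they limit the lifetime of the active domain. EP300, the acetyltransferase of the activating complex, differed by 0.12 (95% interval -0.10 to 0.34).

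The corepressors held 2 of 15 genes at an unadjusted p under 0.05, or 13.3%, close to the 11.5% of all genes. CTBP2 was lower in LF/LCL by a log2 difference of -0.27 (adjusted limma p 0.42), and AES, a short Groucho-family protein, was higher by 0.31 (adjusted p 0.365). SPEN, which recruits corepressors to RBPJ, differed by -0.09 (95% interval -0.33 to 0.14). DTX2, a Deltex ubiquitin ligase, was 1 of 11 receptor turnover genes with an unadjusted p under 0.05, or 9.09%, at 456 and 504 normalized reads in LF/LCL against 618 to 643 in SF/SCL, a difference of -0.39 (adjusted p 0.329). WWP2, another ubiquitin ligase of that list, differed by 0.09 (95% interval -0.14 to 0.32).

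Of the 6 other targets tested, HES2 and HEY2 had an unadjusted p under 0.05, or 33.3% against 11.5% of all genes. HES2 had 156 and 113 normalized reads in LF/LCL against 49.9, 79.3 and 92.3 in SF/SCL, a log2 difference of 0.89 (95% interval 0.02 to 1.75, adjusted limma p 0.426). HEY2, the relative of HEY1 that is known from arteries, had 396 and 236 in LF/LCL against 389, 593 and 765 in SF/SCL, a difference of -0.87 (95% interval -1.73 to -0.02, adjusted p 0.426). LF/LCL replicate 1 overlapped SF/SCL replicate 1 in HEY2. The HEY2 difference was -0.50 without LF/LCL replicate 2, with an unadjusted p of 0.258, and HES2 ranged from 0.63 to 1.11 with each library left out. None of the 7 ligand endocytosis genes or the 3 other ligands tested had an unadjusted p under 0.05. MIB2, a ligase that drives uptake of bound ligand, differed by 0.07 (95% interval -0.39 to 0.54), and NOV, a secreted protein reported to bind Notch, by -0.22 (95% interval -1.04 to 0.59).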

How the data were processed

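Polyadenylated RNA libraries of ampulla tissue from 5 cows were analysed. The deposited table holds a normalized signal, made by the authors by dividing the HTSeq (0.5.4p2) read count of each gene by a DESeq (1.12.1) size factor. Reads had been aligned with TopHat2 (2.0.8) to the UMD cattle assembly, and only uniquely mapped, unambiguous reads were counted. Whether strand was used is not given in the sources used here. The RefSeq gene table, made on another assembly, places a pseudogene over NOTCH2 and over JAG1, and none over the other 8 genes. Reads in those overlaps may have been left out as ambiguous.

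Every value was a whole multiple of 1 step per library. Dividing by it gave whole reads for 100% of values (tolerance 0.1).

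Genes with a mean value over 5 were tested with limma (3.58.1, R 4.3.3; trend and robust eBayes) on log2(value + 1), two-sided, with no covariates and Benjamini-Hochberg adjustment over all 15815 genes. Fold changes on this scale understate changes of low genes. Alternatives were edgeR (4.0.16), DESeq2 (1.42.0) and limma-voom on the recovered reads, pseudocounts of 0.5 and 5, other filters and scalings, and leaving out each library. The calculations were tested on simulated data. The labels gave groups, and no batch was named in them.

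The genes, role lists and marker lists were chosen with earlier results of these data known. Of the role lists, the genes named are those with an unadjusted p under 0.05 and the gene with the highest mean in each role. The values of 1 gene that this rule selects are not reported here, though it counts in the totals. CDH1 and KAT2B were matched through the names the table uses, after the table was seen. No sequences or coordinates are given.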

Additional observations from a re-analysis of the deposited data

How the results depend on the processing

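None of the 10 Notch genes had an adjusted p under 0.05 under any alternative run. Over all genes the number called was 0 in limma, 460 in DESeq2 and 335 in the edgeR exact test, and among the other pathway genes 0, 2 (LFNG and APH1B) and 1 (APH1B). The number of Notch genes at an unadjusted p under 0.05 was 1 in the test as reported and 0 with limma-voom and with plain eBayes (both 0.0515 for DLL1), and ranged from 0 to 1 when each library was left out. It was 0 without LF/LCL replicate 1 and without replicate 2. Notch genes whose groups did not overlap numbered 2, and 2 to 5 with a library left out, 4 without LF/LCL replicate 1 and 5 without SF/SCL replicate 2. Other pathway genes at an unadjusted p under 0.05 with the higher mean in LF/LCL numbered 6 as reported. With an SF/SCL library left out they numbered 3 to 7, with 3 without SF/SCL replicate 3. Those higher in SF/SCL numbered 7, with 4 under plain eBayes. With an SF/SCL library left out these numbered 3 to 5, with 3 without SF/SCL replicate 2. Over all genes, in either direction, the number was 1819 as reported and 1656 under plain eBayes. It was 1497 to 1658 with an SF/SCL library left out. The cause of these shifts was not tested, except that fewer libraries enter a fit with one left out. For the counts of non-overlap with a library left out, the share over all genes was not taken. Groups with fewer libraries overlap less readily.

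Log2 differences that changed sign when a library was left out ranged from -0.17 to 0.74 for NOTCH1, -0.17 to 0.02 for NOTCH2 (0.0015 without SF/SCL replicate 1), -0.42 to 0.20 for NOTCH3, -0.81 to 0.35 for NOTCH4, -0.42 to 0.042 for JAG2 and -0.23 to 0.23 for HEY1. For the other pathway genes they ranged from -0.53 to 0.087 for NOV, -0.11 to 0.22 for MIB2 and -0.0074 to 0.059 for APH1A. With library size scaling, which moved the median of all genes from 0.01 to -0.03, HEY1 was at -0.0073 and APH1A at -0.014. DLL1 and DLL4 kept their sign under all alternatives. Leaving out an LF/LCL library leaves 1 in that group, whose spread is then assumed to be like that of SF/SCL. No paired analysis was possible because the labels give no replicate numbers shared between the groups. Levels per kb were not run, as no transcript lengths were at hand.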

Other observations

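Reads of the receptors were also set against the marker lists of the vessel cells, as values chosen after the data were seen and without a test. NOTCH1 per 100 endothelial marker reads came to 8.48 and 7.14 in the LF/LCL replicates and to 5.99, 5.38 and 6.06 in SF/SCL replicates 1, 2 and 3. The normalized NOTCH1 reads overlapped between the groups, and this ratio did not. The share of all genes whose groups did not overlap was 30.1% for normalized reads and was not taken for such ratios. KDR, the endothelial marker with the highest mean, was itself higher in all SF/SCL libraries, at 2699 to 3560 against 2080 and 1797. The NOTCH1 ratio was not taken without KDR. NOTCH4 per 100 endothelial marker reads overlapped, at 3.83 and 2.71 against 2.73 to 4.73. DLL4 per 100 endothelial marker reads also overlapped, at 8.61 and 12.6 against 6.59 to 9.53, while the normalized DLL4 reads did not.

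NOTCH3 had 32.1 and 48.3 reads per 100 mural marker reads in LF/LCL against 66.5, 56.7 and 79.0 in SF/SCL, so that both LF/LCL libraries lay below the SF/SCL libraries. HEY1 gave 4.06 and 6.61 against 7.43 to 9.41, again with both LF/LCL libraries lower. For these ratios too, the share over all genes was not taken. All 6 mural markers had the higher mean log2 value in LF/LCL, with a median difference of 0.57. NOTCH3 and HEY1 themselves differed by -0.08 and 0.03. MCAM, the mural marker with the highest mean, was itself higher in both LF/LCL libraries, at 2066 and 1049 against 669 to 764. The NOTCH3 and HEY1 ratios were not taken without MCAM. The mural marker sum itself was highest in LF/LCL replicate 1, at 1.80 times the mean of the 5 libraries. Within γ-secretase, APH1B had 0.008 and 0.0078 reads per APH1A read in LF/LCL against 0.0285, 0.0226 and 0.0337 in SF/SCL. The other marker lists gave 4 of 8 immune genes at an unadjusted p under 0.05, all with the higher mean in LF/LCL. They also gave 1 of 6 mural genes in that direction, and 0 of 8 stromal fibroblast and 0 of 4 mesothelial genes. Over all genes 5.64% had an unadjusted p under 0.05 with the higher mean in LF/LCL, and 11.5% in either direction. DESeq2 called 1 of the 8 immune and 1 of the 6 mural genes at an adjusted p under 0.05. It called 0 of the 8 stromal fibroblast and 0 of the 4 mesothelial genes, and 2.91% of all genes.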
